A study of Mus musculus with 4 samples.

Results

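The genes described here encode the proteins of the cytosolic ribosome. Members were the rows of the count table whose symbol is *Rpl* or *Rps* followed by a number, with an optional closing letter such as a, x, y or l, or is *Rplp0*, *Rplp1*, *Rplp2* or *Rpsa*, and whose count exceeded 10 in at least 2 of the 4 libraries. The symbols matched 84 rows and 79 passed the count filter, of 13979 genes that passed it and 36144 names in all. The 79 members comprised 47 genes of the large (60S) subunit and 32 of the small (40S) subunit. The rule uses symbols and a minimum count alone, and no difference between libraries.

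RNA was sequenced in bulk from mouse colonic organoids, which are self-renewing cultures of colon epithelium grown in Matrigel in medium with EGF, Noggin, R-spondin, CHIR99021 and Y-27632. Cultures at passage 3 were left untreated or were given 2 mM sodium butyrate, a short-chain fatty acid of fibre fermentation and an inhibitor of histone deacetylases, and were collected at 48 h and 72 h. The 4 libraries held 1 per condition, so no replicate error could be estimated, no p-value was computed, and each interval below covers counting error only. The labels give a WT male mouse aged 24 weeks for all 4 libraries. The study's text describes Hes1-GFP reporter mice and gives 1 such animal as the source of the sequenced organoids. This difference in genotype could not be settled here, and spread between animals was not sampled. Fewer cells of a type and less RNA per cell cannot be told apart in bulk libraries. The library totals were between 20790225 and 24207840 counts.

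Ribosomal proteins are needed in equal numbers, apart from the stalk proteins, to assemble the subunits around ribosomal RNA. Their mRNAs are among the most abundant of dividing cells and begin with a run of pyrimidines, the 5′ terminal oligopyrimidine (TOP) tract, through which mTORC1 signalling controls their translation. In the colonic crypt, dividing cells at the base make ribosomes at a high rate, and cells that differentiate make fewer. Mammalian genomes also hold very many retrocopies of these mRNAs, that is, intronless copies inserted elsewhere in the genome, most of which are annotated as processed pseudogenes.

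Runs of C and T, the letters of the TOP tract, lay at the annotated starts of part of the members. The windows shown here are examples from both subunits in which a run of C and T spans the annotated start, and they extend from 15 bases before to 15 bases after the first transcribed base, 5′ to 3′ on the gene's strand of GRCm38.p6, with the longest run of C and T near the start in capitals (promoter sequences from RefSeq). They lie at chr9:120571502-120571531 (plus strand) for *Rpl14*, chr2:39005117-39005146 (minus) for *Rpl35*, chr2:26910792-26910821 (plus) for *Rpl7a*, chr7:141447636-141447665 (plus) for *Rplp2*, chr17:27635230-27635259 (minus) for *Rps10*, chr4:86857353-86857382 (minus) for *Rps6* and chr3:90213634-90213663 (minus) for *Rps27*.
Rpl14: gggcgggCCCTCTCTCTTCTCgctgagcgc
Rpl35: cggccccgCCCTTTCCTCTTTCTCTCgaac
Rpl7a: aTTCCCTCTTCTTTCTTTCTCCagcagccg
Rplp2: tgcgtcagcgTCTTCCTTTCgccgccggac
Rps10: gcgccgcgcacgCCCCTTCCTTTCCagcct
Rps6: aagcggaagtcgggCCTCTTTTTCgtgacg
Rps27: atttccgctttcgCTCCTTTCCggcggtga

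Of the 79 members, 58 had a promoter sequence in the RefSeq table. A run of at least 8 bases, each C or T, that reached within 10 bases of an annotated start was found in 28 of the 58 (48.3%) and in 15.8% of the 27025 genes of the table. A C at the annotated start followed by at least 4 bases that are C or T was found in 13 of the 58 (22.4%) and in 3.01% of all genes. The Ets core letters CCGGAAG, on either strand of the window from 250 bases before to 50 bases after the start, were found in 41.4% of members and 9.93% of all genes. In the same window, on either strand, the letters GGGCGG, a GC box, were found in 62.1% and 38.2%, AAGATGGC, a YY1 motif, in 8.62% and 3.19%, and TATAAA in 10.3% and 15.7%. The shares of all genes cover every gene of the RefSeq table, whether or not it passed the count filter, and no share over expressed genes was computed. A match is a description of the letters and not of a bound site.

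In the count table, rows of retrocopies with the sequence of a member also held counts, which bears on the levels of members that have such copies. A copy was taken to be a row of another gene whose transcript matched a member's coding sequence at 95% identity or more over at least 80% of its coding bases. By this measure 69 members had at least 1 copy with a count, over 419 copy rows, and 24 members had at least 10% of the summed counts of member and copies in the copy rows, called its reads in copies below (8 members at least 50%). The copies together took 15.5% of the reads of members and copies in the untreated library at 48 h and 14.4% to 14.5% in the other 3 libraries. The largest was Gm15500, a transcribed processed pseudogene on the minus strand of chr7:114705217-114706235, whose sequence is identical to *Rpl5* (chr5:107900502-107909005) over all 891 coding bases. It was listed at 21452, 24340, 17944 and 17872 counts in the untreated 48 h, butyrate 48 h, untreated 72 h and butyrate 72 h libraries, in the order kept throughout, while *Rpl5* itself was listed at 1901, 3628, 2759 and 2745. Gm10275 (chr10:29698746-29699380) is identical to *Rpl12* (chr2:32961559-32965345) over 495 coding bases and was listed at 16765, 16952, 15587 and 14068 counts against 1050, 1459, 1114 and 1096 for *Rpl12*. The first 60 coding bases of both pairs are shown because a read that lies within them matches both genes. A pair that differs by a single base, *Rpl35* and Gm2000, is shown from coding base 87 to 146 with the base in capitals (C117T, counted from the start codon, with the *Rpl35* base first).
Rpl5: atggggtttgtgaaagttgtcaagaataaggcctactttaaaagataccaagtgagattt
Gm15500: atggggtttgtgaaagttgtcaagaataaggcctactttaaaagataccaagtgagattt
Rpl12: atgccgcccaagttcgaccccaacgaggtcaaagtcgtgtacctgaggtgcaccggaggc
Gm10275: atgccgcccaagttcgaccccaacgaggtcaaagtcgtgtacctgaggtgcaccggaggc
Rpl35: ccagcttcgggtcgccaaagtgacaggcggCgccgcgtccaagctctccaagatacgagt
Gm2000: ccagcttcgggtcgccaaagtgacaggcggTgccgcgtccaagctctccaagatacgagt

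Of the 27 copy rows with at least 400 counts over the 4 libraries, 17 were identical to the member over its whole coding sequence. These included Rps6-ps4 for *Rps6*, Rpl10-ps3 for *Rpl10*, Gm7536 for *Rpl27a*, and Rps12-ps3 and Rps12l1 for *Rps12*. A pair of copies of *Rpl27*, Rpl27-ps3 and Gm11518, each identical to its coding sequence, held the same counts in every library, at 1834, 2439, 1772 and 1857. Each member is therefore given as deposited and, where it matters, with its copies added. Whether any retrocopy is transcribed was not tested.

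As a whole, the members took 4.17% of all counts in the untreated library at 48 h (exact 95% interval 4.16% to 4.18%), 4.36% in the butyrate library at 48 h, 3.57% in the untreated library at 72 h and 3.94% in the butyrate library at 72 h. The share was thus higher in the butyrate library at both times and lower at 72 h than at 48 h in both conditions. With copies added the shares were 4.93%, 5.11%, 4.17% and 4.61%, in the same order of libraries. Genes of the mitochondrial genome took 15.1%, 14.1%, 18.4% and 16.3% of counts, the reverse order of libraries, and with these left out of the totals the member shares were 4.91%, 5.08%, 4.37% and 4.70%.

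**Figure D1:**
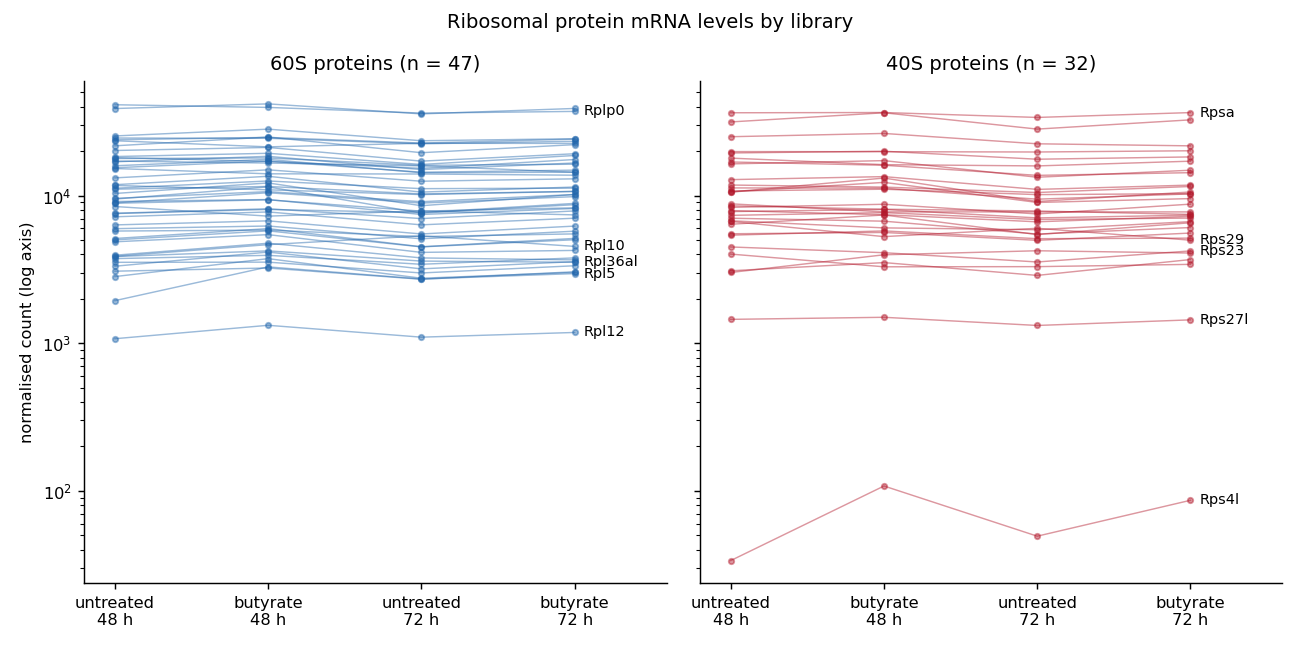
Normalised count (count divided by the library's size factor, log axis) of each of the 79 members in the 4 libraries, 60S proteins at left and 40S proteins at right, with 1 line per gene. Nearly all lines run close to level, Rpl5 and Rpl12 lie low as deposited, and Rps4l stands far below the other 40S genes.

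Levels between genes were compared as normalised counts per kilobase of the shortest annotated transcript with the full coding sequence, averaged over the 4 libraries. The median over the 78 members other than *Rps4l* was 12881 counts per kb as deposited and 16153 with copies. The highest levels as deposited belonged to *Rpl41* (35401 counts per kb), which encodes the shortest ribosomal protein, *Rps2* (32266) and *Rpl23a* (30441). The lowest were *Rps4l* (87.9), *Rpl12* (942) and *Rpl5* (1335). With copies added, *Rpl12* stood at 13670 and *Rpl5* at 11246 counts per kb, within the range of the other members, and *Rps12* moved from 7748 to 34412. The ratio of the 90th to the 10th percentile of levels was 4.90 as deposited and 3.02 with copies. *Rps20* stood at 1710 counts per kb, over an annotated transcript of 3706 bases.

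The comparison of butyrate with untreated libraries asks how the treatment bears on these genes at each time. At 48 h, 58 of the 79 members (73.4%) were higher in the butyrate library by any amount, against 48.7% of all genes that passed the filter and 42.4% of the 4649 genes whose mean normalised count reached 1000. At 72 h, 67 of 79 (84.8%) were higher, against 50.3% and 46.4%. The differences were small. The median log2 fold change over the members was 0.07 at 48 h and 0.11 at 72 h, while the genes with a mean of at least 1000 had medians of −0.05 and −0.02. With copies added, 53 and 67 members were higher, and the medians were 0.07 and 0.10. By subunit, 39 of 47 60S genes and 19 of 32 40S genes were higher at 48 h, and 40 of 47 and 27 of 32 at 72 h. With copies added the 60S median was 0.09 at 48 h and 0.10 at 72 h, and the 40S median was 0.01 and 0.10.

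Few members differed by much. Levels at least 25% higher with butyrate at 48 h were seen in 4 members (*Rpl27*, *Rpl5*, *Rps12* and *Rps4l*), which is 5.06% of members against 22.7% of all genes and 10.2% of genes with a mean of at least 1000. Levels at least 20% lower, the same step on the log2 scale, were seen in 1 member, *Rps29*, against 20.5% and 16.6%. At 72 h, 2 members were at least 25% higher (*Rps21* and *Rps4l*), against 18.1% and 5.94%, and 0 were at least 20% lower, against 17.4% and 10.5%. A 2-fold difference was reached by 1 member at 48 h, *Rps4l*, against 10.0% of all genes, and by 0 at 72 h, against 8.31%. With copies added, *Rps4l* was the 1 member at least 25% higher at 48 h.

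**Figure D2:**
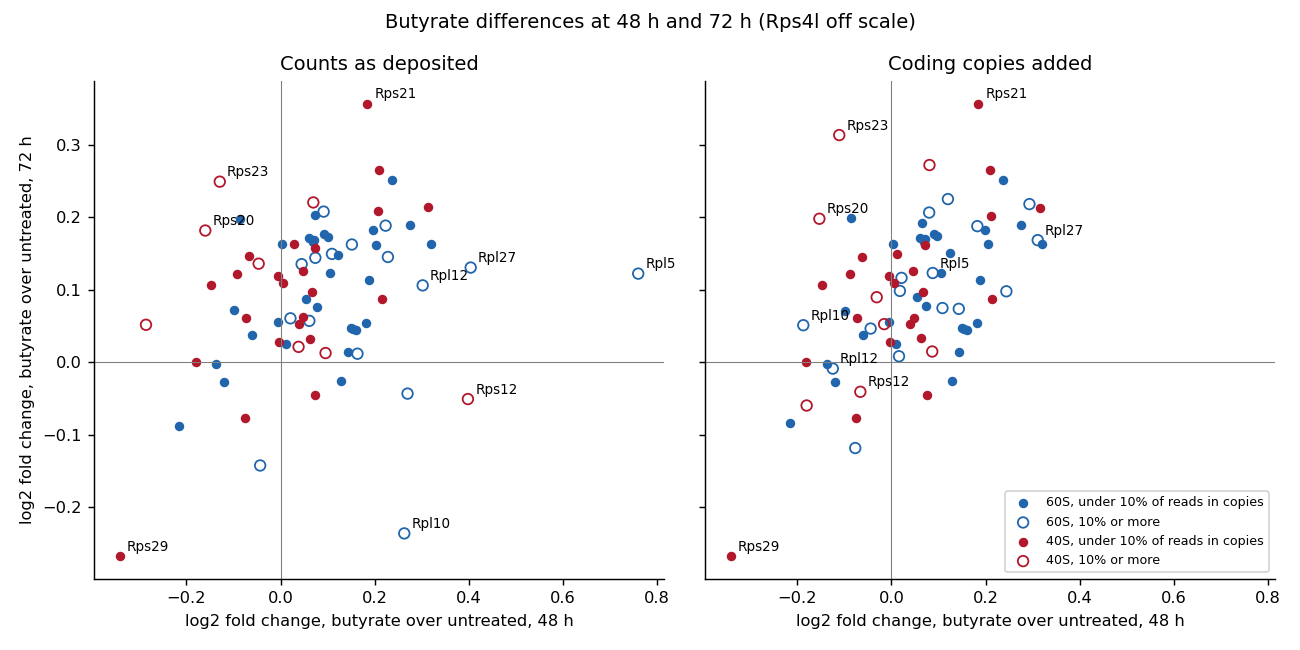
Log2 fold change of butyrate over untreated at 48 h (x axis) against 72 h (y axis) for the members other than Rps4l, as deposited at left and with coding copies added at right, with open symbols for members that have at least 10% of their reads in copies. Rpl5, Rpl10, Rps12 and Rpl12 move toward the other members once copies are added, while Rps29 stays at the lower left.

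Across the 78 members other than *Rps4l*, the 48 h and 72 h differences, which come from separate pairs of libraries, had a Pearson correlation of 0.26 (Spearman 0.26) as deposited and 0.53 (0.48) with copies added. Genes are not independent replicates, and these values describe the 4 libraries. In all, 53 of the 79 members were higher with butyrate at both times, against 30.4% of all genes and 25.0% of genes with a mean of at least 1000. There were 7 members lower at both times, against 31.3% and 36.2%, and 19 that differed in sign, against 38.3% and 38.8%.

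The stalk of the 60S subunit, which recruits elongation factors, is built from *Rplp0* at its base and the acidic proteins *Rplp1* and *Rplp2*. In what follows, values in brackets are log2 fold changes of butyrate over untreated, followed where given by the counting interval, with 48 h before 72 h. *Rplp0* stood at 41272, 39585, 36231 and 37188 normalised counts, so that butyrate libraries were lower by little at 48 h and higher by little at 72 h (−0.06, −0.08 to −0.04, and 0.04, 0.02 to 0.06). *Rplp1* stood at 15266, 14052, 14015 and 13751. It was lower with butyrate at 48 h, by a log2 fold change of −0.12 (−0.15 to −0.09), and its interval at 72 h held 0 (−0.06 to 0.01). *Rplp2* stood at 9475, 11467, 7615 and 8685, so that both butyrate libraries exceeded the untreated library of the same time (0.28, 0.24 to 0.31, and 0.19, 0.14 to 0.23). The partner stalk proteins *Rplp1* and *Rplp2* thus had opposite signs at 48 h, and copies took 0.045% of the reads of *Rplp1* and none of *Rplp2*.

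*Rpl5* and *Rpl11* bind the 5S ribosomal RNA and, when free of ribosomes, inhibit Mdm2. *Rpl5* as deposited stood at 1944, 3292, 2724 and 2965 normalised counts, lowest in the untreated library at 48 h, with a log2 fold change with butyrate of 0.76 (0.68 to 0.84) at 48 h and 0.12 (0.05 to 0.20) at 72 h. Copies held 91.9% of the reads of *Rpl5* and its copies in that library and 86.7% to 87.0% in the others. With copies added the values were 0.09 and 0.12. *Rpl11* stood at 11223, 12569, 11149 and 11238, with its highest level in the butyrate library at 48 h and the other libraries close together (0.16, 0.13 to 0.20, and 0.01, −0.03 to 0.05). With copies its values were 0.24 and 0.10.

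*Rpl10*, which joins the 60S subunit late, near the tRNA sites, stood at 3882, 4657, 5338 and 4531 normalised counts as deposited. It was higher with butyrate at 48 h and lower at 72 h (0.26, 0.20 to 0.32, and −0.24, −0.30 to −0.18). Copies held 77.9%, 69.7%, 66.2% and 72.3% of its reads, and with them added the values were −0.19 and 0.05, so that both signs changed. *Rpl12*, a protein of the stalk base and the reference gene that the study used for RT-qPCR in a human cell line, stood at 1074, 1324, 1100 and 1184 as deposited. Its log2 fold change of 0.30 (0.19 to 0.42) at 48 h became −0.12 with copies, and 0.11 (−0.02 to 0.23) at 72 h became −0.01. The human gene was not measured in these libraries.

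**Figure D3:**
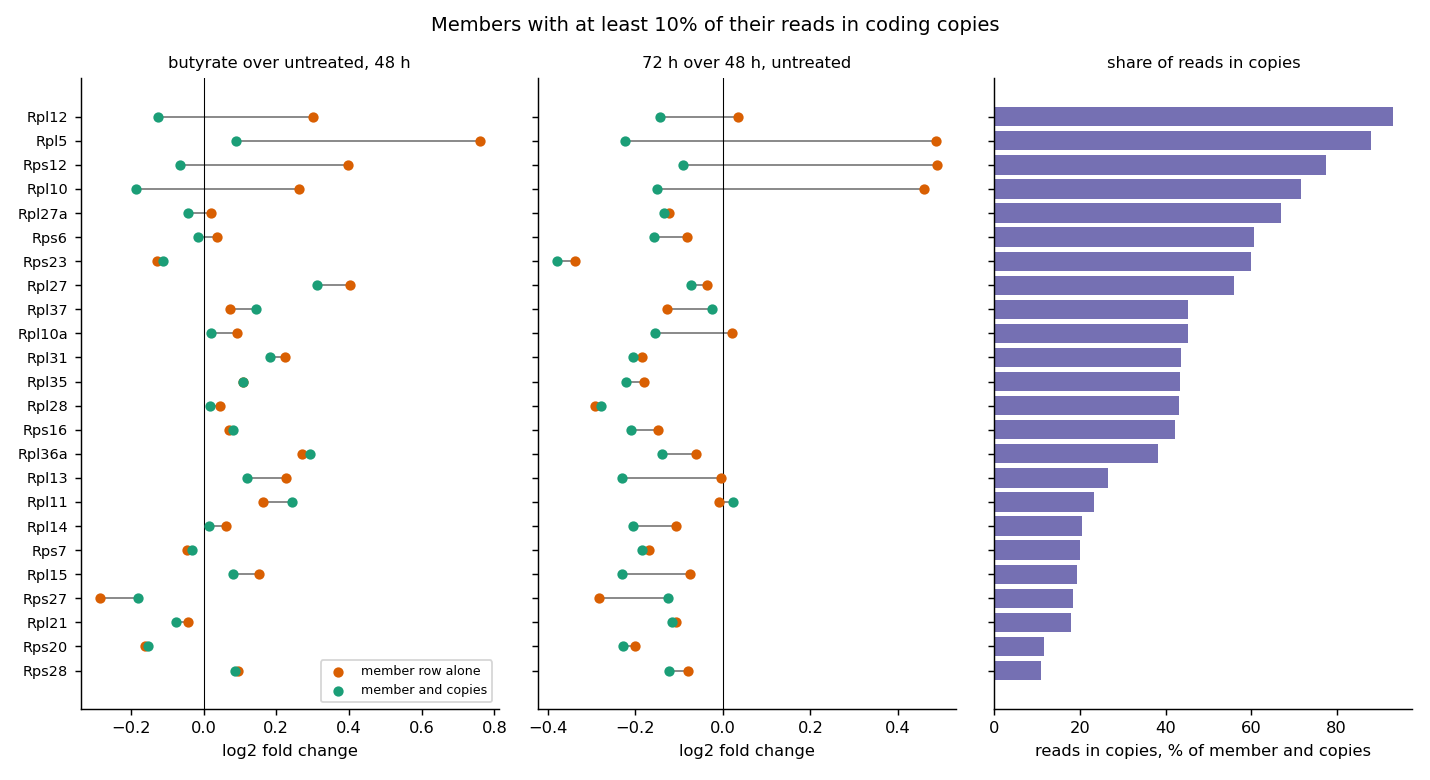
The 24 members with at least 10% of their reads in coding copies, with the log2 fold change of the member row alone and of member and copies together for butyrate at 48 h (left) and for 72 h over 48 h in untreated cultures (middle), and the percentage of reads in copies (right). The differences of Rpl5, Rpl10, Rpl12 and Rps12 shrink or change sign once copies are added.

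Among the other 60S members named for a role or a difference, *Rpl3*, beside the peptidyl transferase centre, was close to level at 24557, 24461, 22447 and 23333 normalised counts (−0.01 at 48 h and 0.06 at 72 h). *Rpl41* stood at 15447, 17140, 14410 and 14883 (0.15 and 0.05), and *Rpl23a*, at the peptide exit tunnel, at 17836, 17992, 16036 and 16323 (0.01 and 0.03). *Rpl18* had the pattern of the stalk protein *Rplp2*, at 10340, 12190, 8545 and 10175, higher with butyrate at both times (0.24, 0.20 to 0.27, and 0.25, 0.21 to 0.29). *Rpl30*, at 8440, 7263, 7874 and 7405, was lower at both times (−0.22, −0.26 to −0.17, and −0.09, −0.14 to −0.04), as was *Rpl21*, at 17138, 16631, 15905 and 14407 (−0.04, −0.07 to −0.01, and −0.14, −0.18 to −0.11). Copies held 17.8% of the reads of *Rpl21*, and with them added its values were −0.08 and −0.12. *Rpl36a* and its retroposed paralogue *Rpl36al*, which encode nearly the same protein from coding sequences 87.7% identical, stood at 3948, 4760, 3785 and 3672 and at 3865, 4225, 3603 and 3539. Both had their highest level in the butyrate library at 48 h, and their intervals at 72 h held 0. With the copies of *Rpl36a* added its log2 fold change was 0.29 at 48 h and 0.22 at 72 h, against 0.13 and −0.03 for *Rpl36al*, which has no copy row with a count.

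In the 40S subunit, 4 members were named for a known role. *Rpsa*, related to the laminin receptor, stood at 36413, 36550, 33854 and 36515 normalised counts (0.01, −0.02 to 0.03, at 48 h and 0.11, 0.09 to 0.13, at 72 h). *Rps3*, at the mRNA entry site, stood at 19455, 19986, 17643 and 18288 (0.04 and 0.05). *Rps6*, the substrate of S6 kinase, stood at 10763, 11052, 10160 and 10309 (0.04 and 0.02). Copies held 60.7% of its reads, and with them added the values were −0.02 and 0.05. *Rps27a*, made as a fusion with ubiquitin, stood at 7919, 7424, 6648 and 7234 and differed in sign between the times (−0.09, −0.14 to −0.05, and 0.12, 0.07 to 0.17).

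*Rps2*, *Rps10* and *Rps14* were higher with butyrate at both times. *Rps2*, which lies at the mRNA entry, stood at 31560, 36412, 28227 and 32605 normalised counts (0.21 at both times). *Rps10* stood at 10581, 13154, 9124 and 10587 (0.31, 0.28 to 0.35, and 0.21, 0.17 to 0.26), and *Rps14*, the gene deleted in the 5q− syndrome, at 6400, 7396, 5450 and 6552 (0.21, 0.16 to 0.26, and 0.27, 0.21 to 0.32). In each of these genes the untreated library at 72 h was the lowest of the 4. *Rps21* had the largest difference at 72 h among protein-coding members, at 3097, 3519, 2882 and 3690 (0.36, 0.28 to 0.43), against 0.18 at 48 h.

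*Rps29*, a small zinc-binding 40S protein (minus strand of chr12:69157722-69159186), was the member with the lowest value at both times. It stood at 6685, 5277, 6009 and 4991 normalised counts, so that both butyrate libraries lay below both untreated libraries. The differences were −0.34 (−0.39 to −0.29) and −0.27 (−0.32 to −0.21) on the log2 scale, and no copy row with a count was found for it.

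*Rps20* and *Rps23*, the latter at the decoding centre, differed in sign between the times. *Rps20* stood at 6756, 6047, 5878 and 6666 normalised counts (−0.16, −0.21 to −0.11, at 48 h and 0.18, 0.13 to 0.23, at 72 h). *Rps23* stood at 4491, 4106, 3554 and 4223 (−0.13, −0.19 to −0.07, and 0.25, 0.18 to 0.31). Copies held 60.5% of the reads of *Rps23* in the butyrate library at 72 h and 11.5% of those of *Rps20* over all libraries, and with them added the values kept their signs, at −0.11 and 0.31 and at −0.15 and 0.20. In both genes the untreated library at 48 h was the highest and that at 72 h the lowest of the 4.

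The paralogue *Rps27l*, a target of p53, differs from *Rps27* at 18 of its first 60 coding bases, shown in capitals, and the coding sequences are 76.7% identical, below the 95% set for copies.
Rps27: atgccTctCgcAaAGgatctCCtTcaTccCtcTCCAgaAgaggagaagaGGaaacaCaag
Rps27l: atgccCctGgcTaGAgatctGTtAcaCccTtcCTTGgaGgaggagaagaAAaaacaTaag
*Rps27l* stood at 1452, 1500, 1320 and 1441 normalised counts (0.05, −0.06 to 0.15, and 0.13, 0.02 to 0.24) and *Rps27* at 4019, 3296, 3304 and 3424 (−0.29, −0.35 to −0.22, and 0.05, −0.02 to 0.12). The untreated library at 48 h was the highest for *Rps27* and the other libraries lay close together. With copies the *Rps27* value at 48 h was −0.18. Per kilobase, *Rps27* stood at 10670 and *Rps27l* at 2862 normalised counts.

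*Rps4l* was the one member that differed by 2-fold, and the one not annotated as protein-coding. GENCODE lists it as a transcribed processed pseudogene on chr6:148354656-148355598, 79.7% identical to the coding sequence of *Rps4x*, its X-linked parent (chrX:102184941-102189394), and its first 60 aligned bases differ at 7 positions, in capitals.
Rps4x: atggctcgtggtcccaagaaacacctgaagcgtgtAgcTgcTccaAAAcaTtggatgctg
Rps4l: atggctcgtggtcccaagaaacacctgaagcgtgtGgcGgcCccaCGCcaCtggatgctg
*Rps4l* was listed at 33, 119, 50 and 80 counts, higher in both butyrate libraries than in both untreated libraries. On normalised counts with 1 added, the log2 differences were 1.65 (1.11 to 2.28) and 0.80 (0.28 to 1.35). *Rps4x* was listed at 17554, 17866, 16098 and 15843 counts, with log2 fold changes of −0.15 and 0.11.

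Most members were lower at 72 h than at 48 h in both conditions, and these time comparisons use the same 4 libraries as the comparisons above. In untreated cultures 6 of 79 members (7.59%) were higher at 72 h than at 48 h, against 50.5% of all genes and 56.5% of genes with a mean of at least 1000. With copies added 2 were higher, *Rpl11* and *Rps4l*. In butyrate-treated cultures 13 of 79 (16.5%) were higher, against 48.7% and 55.7%, and 9 with copies. The median log2 fold change was −0.15 in untreated and −0.12 in butyrate-treated cultures, while genes with a mean of at least 1000 had medians of 0.03 and 0.04. In all, 62 of the 79 members were lower at 72 h in both conditions, against 29.7% of all genes and 24.0% of genes with a mean of at least 1000, and 68 were with copies added. The subunits were alike with copies added in untreated cultures, at −0.16 for the 60S and −0.17 for the 40S, and stood at −0.14 and −0.10 in butyrate-treated cultures.

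Levels at least 25% higher at 72 h than at 48 h in untreated cultures were seen in 4 members (*Rpl10*, *Rpl5*, *Rps12* and *Rps4l*), against 14.5% of all genes and 5.96% of genes with a mean of at least 1000, and at least 20% lower in 2 (*Rps19* and *Rps23*), against 12.5% and 2.95%. With copies added, *Rps4l* was the 1 member left on the higher side. *Rps12* moved from 0.49 to −0.09, *Rpl10* from 0.46 to −0.15 and *Rpl5* from 0.49 to −0.22. The SD of the differences over the 78 members other than *Rps4l* was 0.15 as deposited and 0.07 with copies. In butyrate-treated cultures 0 members were at least 25% higher, against 20.8% and 17.8%, and 4 were at least 20% lower (*Rpl36a*, *Rpl37a*, *Rplp2* and *Rps18*), against 22.8% and 10.3%. No member differed by 2-fold between the times in either condition, against 4.49% of all genes in untreated and 8.62% in butyrate-treated cultures. *Rplp2* had the lowest value in butyrate-treated cultures (−0.40, −0.44 to −0.36) and *Rps19*, mutated in Diamond-Blackfan anaemia, in untreated cultures (−0.36, −0.41 to −0.31), from 7031 to 5492 normalised counts. With copies added the lowest in untreated cultures was *Rps23*, at −0.38.

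**Figure D4:**
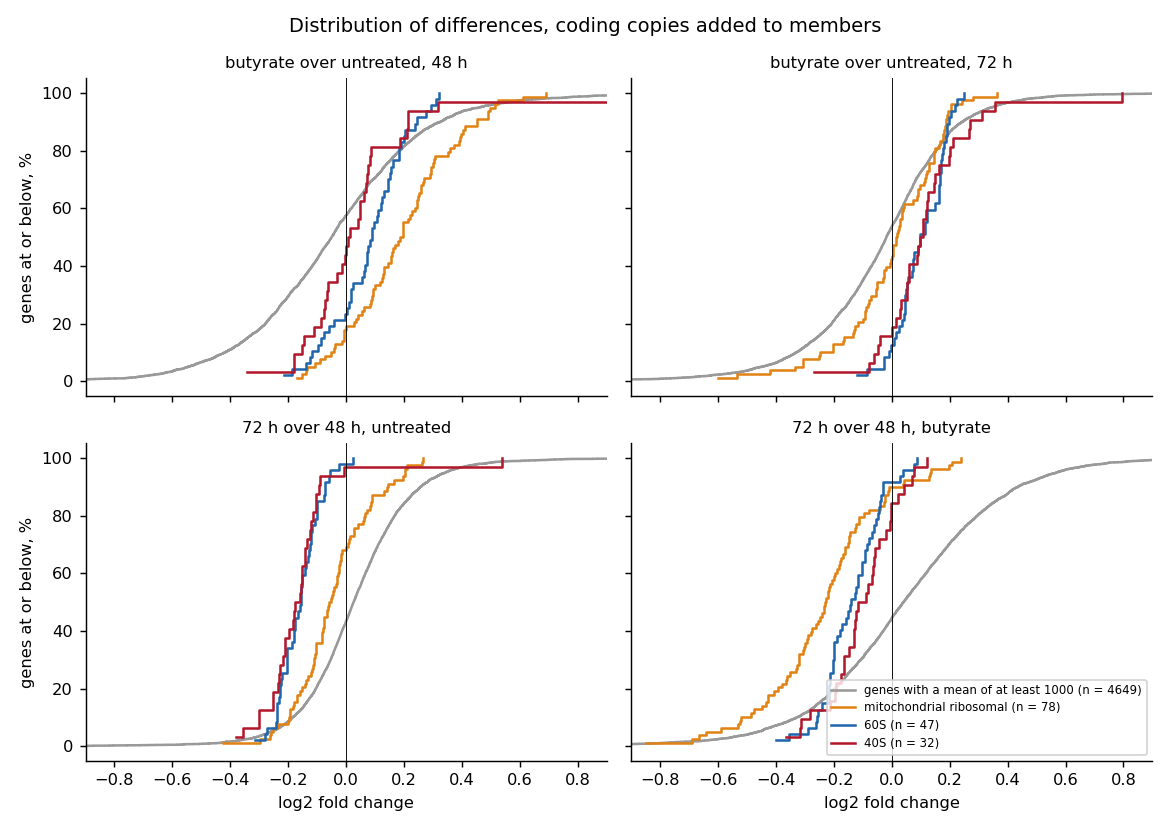
Cumulative share of genes (y axis) at or below each log2 fold change (x axis, cut at 0.9 either side) in the 4 comparisons, for 60S and 40S members with coding copies added, mitochondrial ribosomal protein genes and the 4649 genes whose mean normalised count reached 1000. The member curves are steeper than the others, and their middle lies to the left of the abundant genes in both time comparisons.

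The remaining translation genes were described from lists by function, and none of these counts carries a test. The 5 ribosomal proteins that the symbols miss, among them *Rps3a1* and *Rack1*, had a median of 0.09 at 48 h and of 0.05 at 72 h. *Rack1*, a scaffold on the 40S head, was listed at 21529, 27687, 20063 and 20694 counts (0.19 and 0.17), and *Rps3a1* at 23485, 24613, 23407 and 20662 (−0.10 and −0.05). Of 20 elongation factors and other genes with TOP mRNAs, 14 were higher with butyrate at 48 h and 15 at 72 h, beside 48.7% and 50.3% of all genes and 42.4% and 46.4% of genes with a mean of at least 1000, with medians of 0.08 and 0.12, close to those of the members. Those with the highest mean of both values were *Eef1g* (15783, 24038, 13871 and 14313 counts) and *Eif3k*, and those with the lowest were *Eef1b2* and *Eif3f*.

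The genes that make ribosomal RNA and assemble subunits were described by 3 lists, and the difference between the times was not tested. The median log2 fold change with butyrate was 0.18 and 0.11 over 16 genes of RNA polymerase I, 0.17 and 0.06 over 34 genes of ribosomal RNA processing, and 0.13 and 0.01 over 38 genes of subunit assembly and export. The numbers higher with butyrate were 11 and 12 of 16, 30 and 25 of 34, and 30 and 19 of 38, beside 48.7% and 50.3% of all genes. The others were lower, at 5 and 4, 4 and 9, and 8 and 19 in the same order, and are not named here. *Nop56*, a core protein of box C/D snoRNPs, was listed at 4467, 7109, 4594 and 5321 counts (0.50 and 0.34), and *Noc2l* at 3185, 5113, 3321 and 4035 (0.51 and 0.41). Both genes exceeded the medians of all 3 lists at both times. *Myc*, which activates these genes and the ribosomal protein genes, was listed at 2646, 7657, 1482 and 1890 counts (1.36 and 0.48) and was lower at 72 h in both conditions (−0.89 and −1.77). The part of *Myc* in the differences of these lists and of the members was not tested. The 78 mitochondrial ribosomal protein genes had a median of 0.19 at 48 h and of 0.02 at 72 h. At 48 h 64 of the 78 were higher by any amount, beside 48.7% of all genes, and 0 were at least 20% lower, beside 20.5%. At least 25% higher were 17 of the 78, a share near the 22.7% of all genes, against 4 of the 79 members. From 48 h to 72 h their median was −0.06 in untreated and −0.23 in butyrate-treated cultures. In the latter, 22 of the 78 were at least 20% lower, beside 22.8% of all genes and 4 of the 79 members. There 8 of the 78 were higher by any amount, beside 48.7% of all genes, and 0 were at least 25% higher, beside 20.8%. *Mrpl1* (473, 748, 456 and 536 counts) and *Mrpl23* had the highest mean of the 48 h and 72 h differences with butyrate, and *Mrpl57* and *Mrps34* the lowest. The 16 regulators of TOP mRNA translation that passed the filter had medians of 0.06 and 0.05. Of these, 9 and 12 were higher with butyrate, beside 48.7% and 50.3% of all genes, and 7 and 4 were lower. The translation inhibitor *Eif4ebp1*, above the median of this list at both times, was listed at 926, 1272, 1136 and 1396 counts (0.29 and 0.43). A list of 17 common RT-qPCR reference genes had medians of 0.07 and 0.06. *Gapdh* was listed at 68734, 100526, 71312 and 78532 counts (0.38 and 0.27), which exceeds the difference of *Rpl3*, *Rplp0* and *Rps3*.

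**Figure D5:**
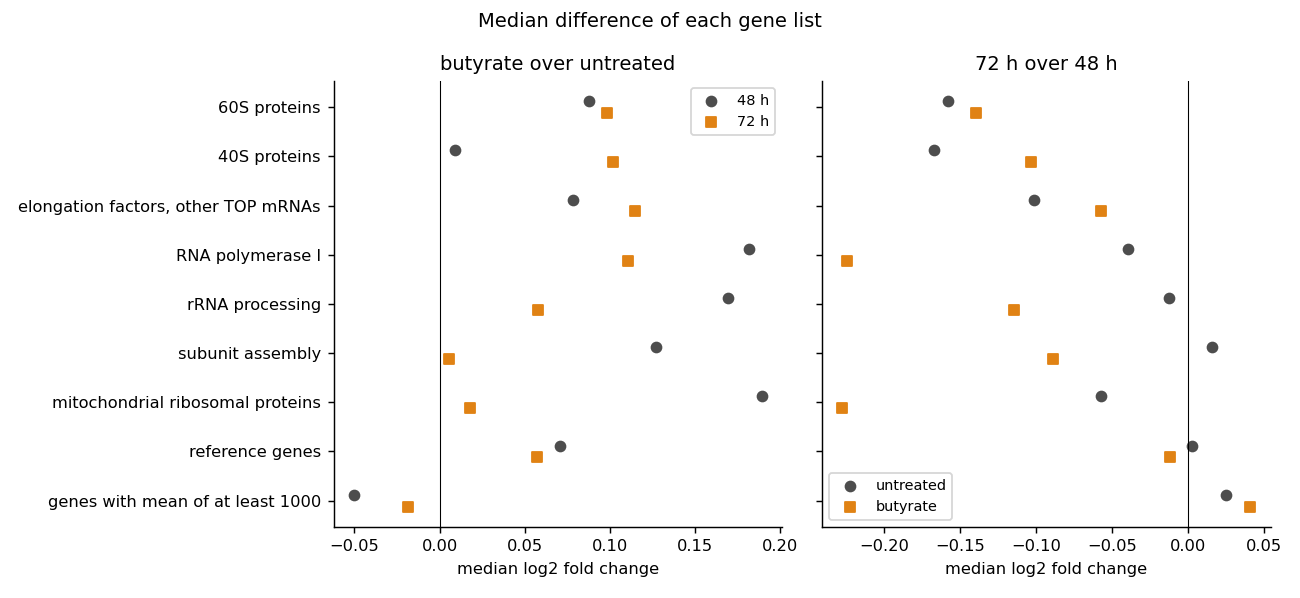
Median log2 fold change of each gene list, with butyrate over untreated at 48 h (circles) and 72 h (squares) at left and 72 h over 48 h in untreated (circles) and butyrate-treated cultures (squares) at right. The 60S and 40S medians include coding copies, and the 2 subunits lie on the negative side in both time comparisons.

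The differences were also set beside the promoter letters, with no test. With copies added, the median log2 fold change with butyrate at 48 h was 0.07 in the 28 members with a run of at least 8 C or T bases near the start and 0.07 in the 30 without, and 0.11 in both sets at 72 h. For CCGGAAG it was 0.13 with the letters and 0.06 without at 48 h, and 0.12 and 0.10 at 72 h. The medians with and without GGGCGG were 0.08 and 0.07 at 48 h and 0.15 and 0.09 at 72 h. For AAGATGGC, found in 5 members, they were 0.06 and 0.07 at 48 h and 0.17 and 0.11 at 72 h, and for TATAAA, found in 6, they were 0.08 and 0.07 and then 0.17 and 0.11. For a C at the start followed by at least 4 C or T bases they were 0.09 and 0.07 at 48 h and 0.10 and 0.11 at 72 h. Across the 78 members, the difference with butyrate with copies added had Pearson correlations of −0.18 at 48 h and 0.06 at 72 h with log2 transcript length, and 0.14 and 0.05 with GC content. For 72 h over 48 h they were −0.05 with log2 length and −0.19 with GC content in untreated cultures. In butyrate-treated cultures they were 0.25 and −0.27.

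Markers of the cells present moved between the libraries as well. The 13 epithelial markers were listed above 1000 counts in every library, among them *Epcam* at 31138, 33929, 30764 and 25463 counts. With butyrate 7 of the 13 were higher at 48 h (median 0.07), beside 48.7% of all genes. At 72 h 2 of the 13 were higher, beside 50.3% of all genes, and 11 were lower (median −0.20). Their summed level at 72 h was 325623 normalised counts in the untreated and 242438 in the butyrate library, and at 48 h it was 258364 and 268603. *Lgr5*, of crypt stem cells, was listed at 7380, 4341, 5108 and 8068 counts, and with *Krt18* it was the exception that was higher at 72 h (−0.94 and 0.79), and *Car1*, of colonocytes, at 19941, 49510, 35077 and 17453 (1.14 and −0.88). Of 8 immune markers, *Itgam* and *Cd68* passed the filter. *Cd68*, a lysosomal protein of macrophages, was listed at 128, 1309, 172 and 420 counts and *Itgam* at 48, 36, 41 and 43, the summed level of the list was between 187 and 1229 normalised counts, and *Adgre1* was at 0 in all libraries. Of 11 fibroblast and endothelial markers, 4 passed, their summed level was between 220 and 301 normalised counts, and *Col3a1* and *Lum* were at 0. The part of these cell markers in the differences of ribosomal protein genes was not tested.

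The 5 matched genes under the count filter were *Rpl10l*, *Rpl39l*, *Rpl3l*, *Rpl32l* and *Rpl6l*. *Rpl6l* reached 11 counts in 1 library and the others at most 3 in any. The counterparts *Rpl10l*, *Rpl39l* and *Rpl3l* are known from testis or muscle, and *Rpl10l* was at 0 in all 4 libraries, which allows up to 3 counts in each.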

How the data were processed

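RNA of 4 mouse colonic organoid cultures, 1 per condition, was enriched for poly-A and sequenced with Illumina TruSeq chemistry, without molecular identifiers. Per the submitters' processing notes, reads were quantified with kallisto 0.44.0 on GRCm38.p6, and the study's methods name tximport for the sum to genes. The annotation release is not given in the sources used here. The authors deposited counts per gene, which are rounded estimates with no normalisation. Members, lists and tests were chosen with earlier results of these data known.

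The gene filter of the study's methods was applied (over 10 counts in 2 or more libraries). Counts were divided by DESeq2 1.42.0 size factors (R 4.3.3). A difference is log2(normalised count + 1) in one library minus that in another, with an exact Clopper-Pearson interval at 95% on the pair of counts. No model was fitted and no p-value given, since there was 1 library per condition. Since reads can be PCR duplicates of one molecule, the floor of 3 counts and all intervals describe counting error alone. Gene positions, coding sequences and lengths were taken from GENCODE M21 (GRCm38), and copies were found with blastn 2.17.0, leaving out genes with a transcript over 2 times the member's length. Scripts used scipy 1.17.1, pandas 2.3.3, matplotlib 3.10.9 and numpy 2.4.6 under Python 3.11.15 and were tested on simulated data.

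The genes named in the text were members with a textbook role, paralogues ending in l with their partners, the 5 highest and 5 lowest of those with the same sign at 48 h and 72 h, the 3 highest and 3 lowest by counts per kb, members past 2-fold, the 3 largest with opposite signs and, in lists, the 2 highest and 2 lowest. Together these were 29 members, and neither all of these nor all genes so picked from the lists are reported here. *Rpl27*, *Rps12*, *Rps18*, *Rps19*, *Rps21* and *Rpl37a*, *Rpl6l* and its companions, *Rps4x*, the copies and the members with printed starts were named after their values were seen. Alternatives were edgeR 4.0.16 TMM factors, totals with and without mitochondrial genes, size factors without members, a pseudocount of 5, thinning, all genes with a count, 1.5-fold, and added proteins or pseudogene rows. Adding coding copies and leaving out *Rps4l* were chosen after seeing the data.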

Additional observations from a re-analysis of the deposited data

Results flagged for a closer look

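For 5 members among those named by rule the sign of the butyrate difference at 48 h was opposite to that at 72 h, and neither counting interval held 0. With 1 library per condition the difference between the times was not tested. *Rpl10* had a log2 fold change with butyrate of 0.26 at 48 h and −0.24 at 72 h, and with its coding copies added these were −0.19 and 0.05. *Rplp0* had −0.0602 and 0.0376. *Rps20* had −0.16 and 0.18, *Rps23* had −0.13 and 0.25, and *Rps27a* had −0.0931 and 0.122. *Rps4x* and *Rps19*, named after their values were seen, also had opposite signs, at −0.15 and 0.11 and at −0.07 and 0.15. Opposite signs at the 2 times, at any size, were found in 38.3% of all genes and in 19 of the 79 members.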

How the results depend on the processing

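No paired analysis was possible because the labels give no replicate numbers and there is 1 library for each condition. For the same reason no library could be left out. The median of the members kept its sign in all 4 comparisons under every alternative run. Scaling by the total count moved it from 0.11 to 0.17 for butyrate at 72 h and from −0.15 to −0.23 for 72 h over 48 h in untreated cultures, where 10 members were then at least 20% lower, and in butyrate-treated cultures 7 were. Under that scaling the median of all genes moved alike, from 0.00 to 0.05 for butyrate at 72 h and from 0.00 to −0.08 for untreated cultures over time, and 17.4% of all genes were at least 20% lower over time in untreated and 25.1% in butyrate-treated cultures. Scaling by the total without mitochondrial genes gave 5 at least 20% lower in untreated cultures over time, where the median of all genes moved from 0.00 to −0.02. The share of all genes at least 20% lower under this scaling was not computed. With all genes of at least 1 count, the numbers past the same step became 4 higher and 1 lower for butyrate at 72 h, 4 lower over time in untreated cultures and 2 higher over time in butyrate-treated cultures. This setting lets in *Rpl6l*, *Rpl32l*, *Rpl3l* and *Rpl39l*, at or near the floor of 3 counts. At 72 h *Rpl6l* was listed at 3 counts untreated and 11 with butyrate, *Rpl32l* at 0 and 2, and *Rpl3l* at 3 and 0. The share of all genes with a count past this step is not given. With rows named as pseudogenes added, 2 were higher over time in untreated cultures. At 1.5-fold, the numbers for butyrate were 2 higher and 0 lower at 48 h and 1 higher at 72 h, and 0 over time in either condition and direction. The share of all genes at 1.5-fold was not computed. At the larger 2-fold step, in either direction, it was 10.0% at 48 h and 8.31% at 72 h with butyrate. Over time it was 4.49% in untreated and 8.62% in butyrate-treated cultures. With coding copies added, 1 was higher for butyrate at 48 h and 1 over time in untreated cultures. Without *Rps4l*, 1 was higher for butyrate at 72 h.

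The share of counts in members, for the libraries in the order of the report, became 4.91%, 5.08%, 4.37% and 4.70% without mitochondrial genes in the total, 4.44%, 4.64%, 3.81% and 4.19% with the missed proteins, 4.55%, 4.72%, 3.86% and 4.26% with rows named as pseudogenes, and 4.93%, 5.11%, 4.17% and 4.61% with coding copies. For the 116 values of members named by rule, TMM factors, size factors without members, a pseudocount of 5 and thinning moved 0 beyond the counting interval, the total without mitochondrial genes moved 2, the total count 50, and coding copies moved 20 and, of values past the 25% step, turned the sign of 2. Among all these values with an interval away from 0, at any size, signs changed with coding copies alone, in 6 cases that include those 2. For the time comparison in untreated cultures *Rpl10* became −0.15 and *Rpl5* −0.22. The others were *Rpl10* at both times, *Rpl12* and *Rps6* at 48 h with butyrate. *Rps12*, named after its values were seen, also changed sign with copies, from 0.40 to −0.07 for butyrate at 48 h and from 0.49 to −0.09 over time in untreated cultures. How kallisto divided reads between identical sequences was not tested. With 1 library per condition, a difference larger than its counting interval may still lie within the spread between cultures or animals.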
